A study of Rattus norvegicus with 6 samples.

Results

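miR-140 is a microRNA of connective tissue whose hairpin yields a 5p arm and a 3p arm, and both were measured here in fibroblasts of rat sciatic nerve and in the extracellular vesicles (EV) these cells release. The members were the 2 rows of the deposited tables named rno-miR-140-3p and rno-miR-140-5p, of 1071 rows in all and 552 rows of known rat miRNAs. All 6 samples came from wild type, untreated, nerve-derived fibroblasts, which the labels place in 1 batch. RNA from the vesicles (called exosomal in the series' design) made up the EV group with 3 samples, and RNA from inside the cells made up the Intracellular group with 3 samples, the controls of the design. Nothing in the labels ties a replicate to its own culture or animal. A p-value therefore reflects the spread among these 6 samples, and that spread may be technical.

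A microRNA precursor is cut to a short duplex, from which one strand is usually kept by an Argonaute protein while the other is degraded. The kept strand pairs with messenger RNAs through its seed, the bases near its 5′ end, and lowers their output. miR-140 lies within Wwp2, which encodes a ubiquitin ligase, and is known for its high level in cartilage, where the transcription factor Sox9 drives it. The 5p arm is known to repress Adamts5, an enzyme that degrades cartilage matrix, and Hdac4, a regulator of chondrocyte growth. The 3p arm is also found in Argonaute, and reads of it that start 1 base later than the annotated form have been described.

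The rat precursor and its arms are given here from RefSeq (build GRCr8), because the results turn on which arm was counted. In the arms the capitals mark the seed, bases 2 to 8. In the hairpin the capitals mark the 5p arm and then the 3p arm.
rno-miR-140-5p: cAGUGGUUuuacccuaugguag
rno-miR-140-3p: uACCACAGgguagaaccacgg
mir-140 hairpin: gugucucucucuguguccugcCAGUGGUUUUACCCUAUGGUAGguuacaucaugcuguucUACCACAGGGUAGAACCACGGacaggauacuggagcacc

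Both arm sequences were identical to those in the deposited table once T was read as U. The 5p arm takes positions 22 to 43 of the 99 bases of the hairpin and the 3p arm positions 61 to 81, counted from 1 at its 5′ end. In the minimum free energy fold predicted by RNAfold the arms formed 19 base pairs with each other. The seeds of the arms differ, and 0 others of the 693 mature rat miRNA names in that source shared either one. The same held one base further in, for the seed that a 3p read starting 1 base later would carry. Mir140 lies within Wwp2, on the same strand, in the RefSeq gene table of build GRCr8. Coordinates are not given because the submitters' processing notes name the build Rnor_6.0. How reads that start at another base were counted is not given in the sources used here, so the rows hold such forms together or leave them out.

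The libraries differed greatly in depth, which limits how well the arms were measured in EV. Totals were 81211 to 105578 counts in EV and 1839047 to 8859302 in Intracellular libraries. Levels are given in CPM, the count of a miRNA per 1000000 counts of its library. A single count was worth 9.47 to 12.3 CPM among EV and 0.113 to 0.544 CPM among Intracellular libraries. Intracellular replicate 1 stood apart in its TMM scaling factor, 0.557 against 0.963 and 0.935 in replicates 2 and 3. The 8 fibroblast and mesenchymal miRNAs listed as markers together held 435952 to 460553 CPM of the EV and 474375 to 495644 CPM of the Intracellular libraries. Of the 7 tested 2 were called higher in EV and 4 lower with TMM scaling. Among all 328 tested miRNAs 25.6% were called higher and 17.1% lower with this scaling, and 3 miRNAs were lower with total counts. The markers miR-199a-5p, miR-199a-3p and miR-145-5p were called lower with TMM scaling and not with total counts. Of 5 miRNAs listed for Schwann cells and neurons, the 4 in the deposited data held 2207 to 2578 CPM in EV against 1588 to 3297 CPM in Intracellular libraries. Of these 3 were tested and 2 called lower, and miR-219a-5p was at 0 in every EV library. The 5 leukocyte miRNAs held 217 to 265 against 63.6 to 169.9 CPM, with miR-142-5p and miR-223-3p at 0 in EV, and the 2 endothelial miRNAs 259.9 to 436 against 141 to 390.3 CPM. For both of these lists 2 miRNAs were tested and 0 called. The 1 liver, 2 erythroid and 1 muscle miRNAs that were tested were called higher in EV. The liver miRNA miR-122-5p held 11158 to 13723 CPM in EV against 118 to 345 CPM in Intracellular libraries, and 3 erythroid miRNAs together 151.5 to 221.6 against 2.26 to 5.98 CPM, with miR-144-3p at 0 in EV. The 3 muscle miRNAs together held 49.3 to 151.5 against 9.06 to 12.6 CPM. Of the 5 epithelial miRNAs 4 had 0 counts in every EV library, which allows a level of up to 28.4 to 36.9 CPM (3 counts) by counting error alone. Of the miRNAs listed for chondrocytes, only those of miR-455 were in the table, and they held 1170 to 2226 CPM in EV against 187 to 416 CPM in Intracellular libraries. The part of other cells in the results for miR-140 was not tested.

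In vesicles the 3p arm of miR-140 was the major one, and inside the cells it was the minor one. miR-140-3p stood at 714, 1544 and 617 CPM in EV replicates 1, 2 and 3, from 58, 163 and 57 counts. Its Intracellular levels were 101, 172 and 194 CPM in replicates 1, 2 and 3, from 186, 569 and 1722 counts. Every EV library lay above every Intracellular library, as for 137 of the 328 tested miRNAs (41.8%). EV replicate 2 was the highest, well apart from the other EV libraries. The mean was 958 ± 509 CPM for EV against 156 ± 48.6 CPM for Intracellular libraries (SD, n = 3 each), a ratio of 6.15 (exact permutation p = 0.1, 2-sided, the smallest that 3 against 3 samples allow). CPM is a share of a library, so neither the amount per vesicle nor the amount per cell was measured, and in bulk samples fewer cells of a type and less RNA per cell cannot be told apart.

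miR-140-5p, the arm with the better known targets in cartilage, did not separate the groups. It stood at 259, 227 and 303 CPM in EV replicates 1, 2 and 3, from 21, 24 and 28 counts. The Intracellular replicates 1, 2 and 3 held 178, 271 and 301 CPM, from 327, 899 and 2666 counts. The ranges overlapped, with the lowest value in Intracellular replicate 1 and the highest in EV replicate 3. Its mean was 263 ± 38.2 CPM for EV against 250.03 ± 64.3 CPM for Intracellular libraries (SD, n = 3 each; exact permutation p = 0.8).

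**Figure D1:**
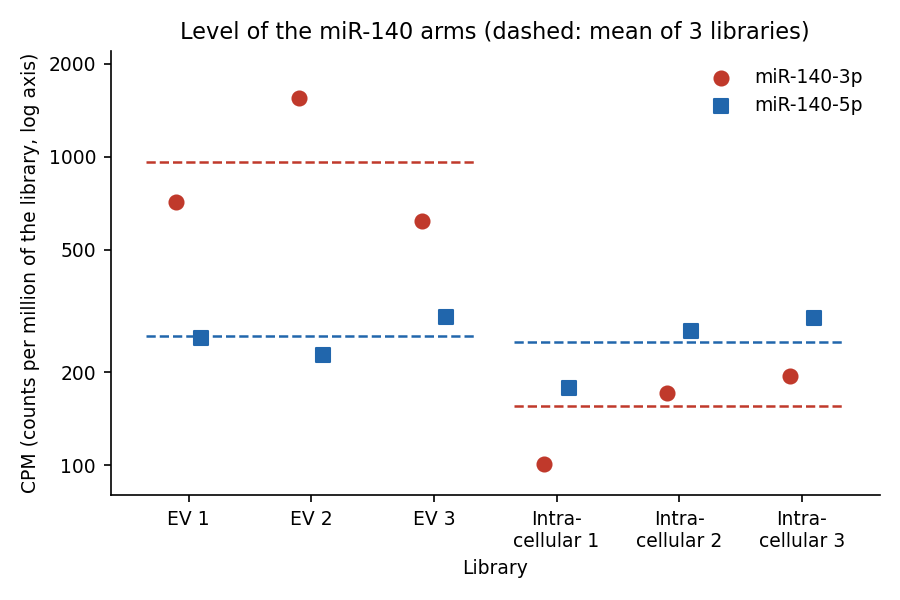
CPM of miR-140-3p (circles) and miR-140-5p (squares) in each library on a log axis, with dashed lines at the means of the 3 libraries of a group. The 3p arm lies at 617 CPM or more in EV and at 194 CPM or less in Intracellular libraries, while the values of the 5p arm overlap between the groups.

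Tested across all miRNAs, miR-140-3p was higher in EV and miR-140-5p was not called in either direction. By the quasi-likelihood test of edgeR with TMM scaling, miR-140-3p rose by 2.02 on the log2 scale (SE 0.28, 95% interval 1.42 to 2.62, Benjamini-Hochberg adjusted p = 1.87e-05). With this test 84 of 328 miRNAs were called higher in EV, 25.6%, and 56 were called lower, 17.1%. With total counts 107 were called higher and 3 lower, and the number called lower was 18 without EV replicate 1, 26 without EV replicate 2 and 36 without Intracellular replicate 3. For miR-140-5p the log2 difference was -0.55 (SE 0.24, 95% interval -1.05 to -0.06, unadjusted p = 0.0313, edgeR adjusted p = 0.0688). The sign of that difference depended on the scaling, as it was 0.07 with total counts (adjusted p = 0.916), and it was called lower, at -0.80, with upper quartile scaling (adjusted p = 0.00692). Scaling by total counts moved the median of all tested miRNAs from -0.06 to 0.55, a shift of 0.61. Relative to the median of all tested miRNAs, miR-140-3p stood 2.08 higher with either scaling, and miR-140-5p stood at -0.49 with TMM and -0.48 with total counts. Without EV replicate 2 the log2 rise of miR-140-3p was 1.48 (edgeR adjusted p = 7.78e-05), without Intracellular replicate 1 it was 2.05 (adjusted p = 0.0131), and without EV replicate 3 the difference of miR-140-5p was -0.72 and passed the threshold (adjusted p = 0.0393).

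Other known miRNAs rose more than the 3p arm. By log2 fold change it ranked at 32 of the 290 known miRNAs tested, while the 5p arm ranked at 206. Of the 74 known miRNAs at least as abundant in EV as miR-140-3p, itself included, 6 were called higher with a larger log2 fold change. By mean CPM among the 551 known miRNAs with a row of their own, miR-140-3p moved from 138 in Intracellular libraries to 74 in EV. miR-140-5p moved from 108 to 128, so that the arms exchanged their order. The neighbours of miR-140-3p in this order were chosen as the next above and below it in mean CPM, so their closeness to it is no result. In EV these were miR-370-3p at 968 ± 35.5 CPM and miR-328a-3p at 915 ± 100.3 CPM, and in Intracellular libraries miR-1843b-5p at 158 ± 46.3 CPM and miR-409a-5p at 154 ± 36.5 CPM (SD, n = 3). Those of miR-140-5p, chosen in the same way, were miR-182 at 264 ± 41.8 and miR-17-5p at 262 ± 36.8 CPM in EV. In Intracellular libraries they were miR-106b-3p at 255 ± 72.0 and miR-214-3p at 249 ± 90.6 CPM.

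**Figure D2:**
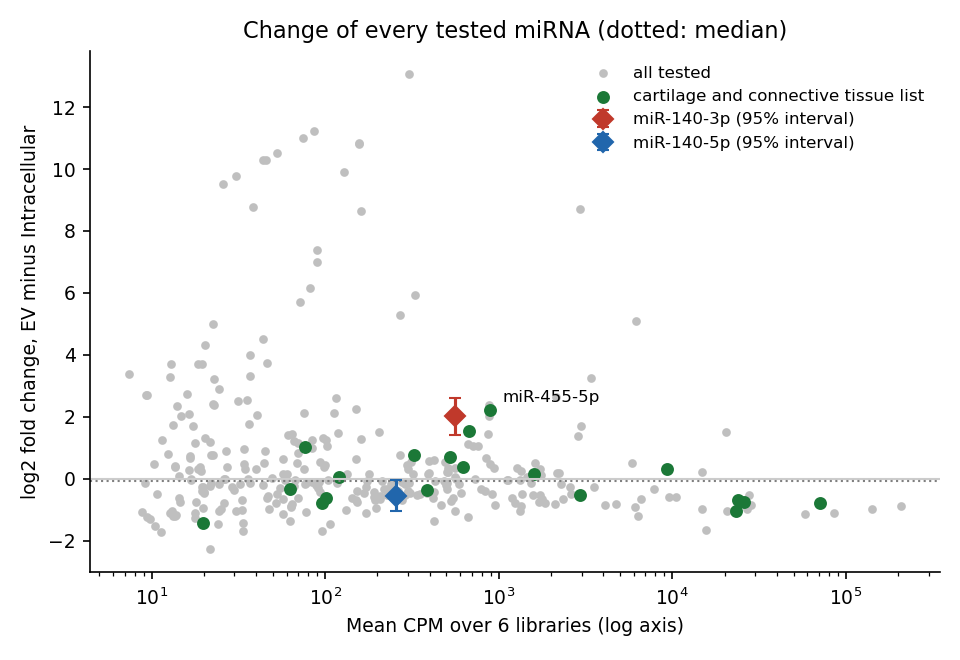
Log2 fold change (EV minus Intracellular, edgeR with TMM scaling) of the 328 tested miRNAs against their mean CPM over 6 libraries on a log axis, with the arms of miR-140 as diamonds with 95% intervals, the cartilage and connective tissue list as large dots and the median as a dotted line. miR-140-3p, at 2.02, lies above the median of -0.06 and beside miR-455-5p, and miR-140-5p lies at -0.55.

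The ratio of the arms does not depend on the scaling of libraries, since both arms of a precursor are counted in the same library. The 3p arm took 73.4% of the miR-140 counts in EV replicate 1 (58 of 79, exact 95% binomial interval 62.3% to 82.7%), 87.2% in replicate 2 (163 of 187, 81.5% to 91.6%) and 67.1% in replicate 3 (57 of 85, 56.0% to 76.9%). It took 36.3% in Intracellular replicate 1 (186 of 513, 32.1% to 40.6%), 38.8% in replicate 2 (569 of 1468, 36.3% to 41.3%) and 39.2% in replicate 3 (1722 of 4388, 37.8% to 40.7%). No interval of an EV library reached that of an Intracellular library. These intervals cover at most the counting error of reads, each taken as independent. PCR reads without molecular identifiers are not independent molecules, so the intervals may be too narrow. The mean share was 75.9% ± 10.3 for EV against 38.1% ± 1.60 for Intracellular libraries (SD, n = 3 each), with the lowest p that these sample numbers permit (exact permutation p = 0.1).

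Expressed as a ratio, there were 2.76, 6.79 and 2.04 counts of 3p for each count of 5p in EV replicates 1, 2 and 3, and 0.569, 0.633 and 0.646 in Intracellular replicates 1, 2 and 3. The mean ratio in EV was 3.86 ± 2.56 (SD, n = 3) and would be 2.40 without EV replicate 2. In a test of the arm ratio by edgeR, with the library as a block and all precursors fitted together, the ratio of miR-140 was 5.66 times higher in EV (95% interval 3.38 to 9.48). On the log2 scale this was a rise of 2.50 (SE 0.38, adjusted p = 3.22e-09), of 1.93 without EV replicate 2 (adjusted p = 9.87e-05) and of 2.49 without Intracellular replicate 1 (adjusted p = 4.04e-12). The call held in every library left out in turn. This fit draws its estimate of spread partly from the other precursors, so its p does not rest on the miR-140 counts alone. With limma on the log2 ratio of each library, also fitted across precursors, the rise was 2.41 with a prior count of 1 (limma adjusted p = 0.00323). It was 2.44 with a prior count of 0.25 (limma adjusted p = 0.0231).

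The EV libraries also differed in this ratio among themselves. By Fisher's exact test on the counts of both arms, EV replicate 2 differed from EV replicate 1 (p = 0.0341) and from EV replicate 3 (p = 0.00119). These values were adjusted over the 6 pairs of libraries within groups. The test takes each read as independent, which PCR reads are not. It therefore cannot decide whether the differences exceed the counting error of molecules. The other 4 pairs had adjusted values of 0.393 or more, which for the Intracellular pairs rest on 513 to 4388 counts a library. These tests compare libraries, not conditions. EV replicate 2 departed in the 3p arm: among 176 known miRNAs with a mean of at least 100 CPM in EV, miR-140-3p had the largest excess in that library over the mean of the other EV libraries, 1.22 on the log2 scale against a median of -0.01. For miR-140-5p this value was -0.30, at position 153. In the same order miR-455-5p came at position 9 with 0.77.

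**Figure D3:**
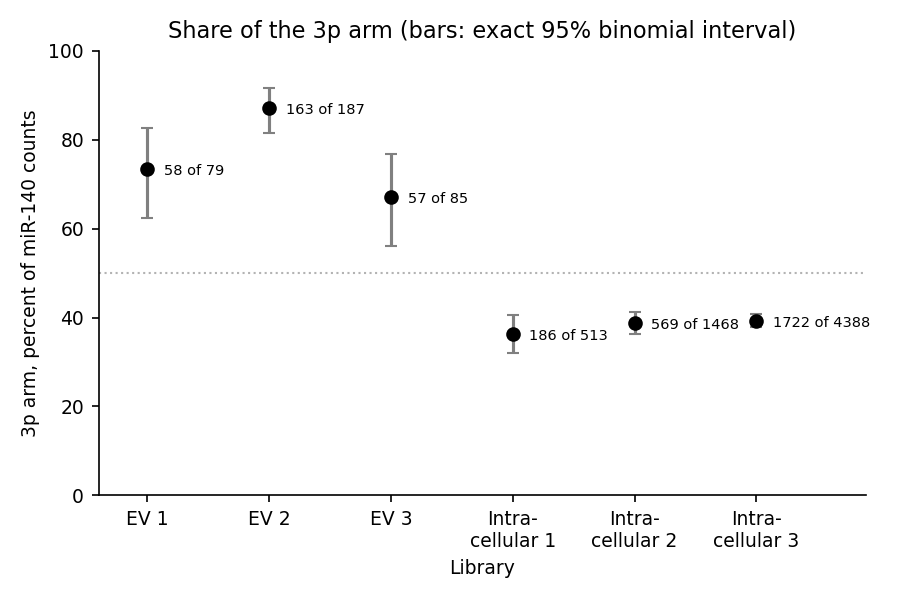
Percentage of miR-140 counts that belonged to the 3p arm in each library, with exact 95% binomial intervals as bars, the counts beside each point and a dotted line at 50%. The EV libraries lie at 67.1% to 87.2% and the Intracellular libraries at 36.3% to 39.2%.

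Counted together, the arms made up a larger part of the EV libraries. Their sum was 973, 1771 and 921 CPM in EV replicates 1, 2 and 3 and 279, 443 and 495 CPM in Intracellular replicates 1, 2 and 3, without overlap. As a share of all counts this was 0.122% ± 0.0477 for EV against 0.0406% ± 0.0113 for Intracellular libraries (SD, n = 3 each; exact permutation p = 0.1). The ratio of these means was 3.01, and 2.33 without EV replicate 2. This order of the groups, with all EV libraries above, was shown by 41.8% of tested miRNAs, and 45.4% had no overlap in either direction.

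Other precursors changed their arm ratio as well. Both arms of 73 precursors were tested, and the arm ratio of 19, 26.0%, was called as changed: 10 toward the 3p arm in EV (13.7%) and 9 toward the 5p arm (12.3%). For 52.1% of the precursors the log2 ratios of the groups lay apart without overlap. miR-140 ranked at 4 of 73 in its change toward the 3p arm and at 7 in the size of its change. The median change over these precursors was 0.41 toward the 3p arm, and the median size was 0.84. The largest called changes toward the 3p arm were those of miR-378a, with 3.76 (SE 0.69, edgeR adjusted p = 1.40e-06) but only 3 EV counts of its 5p arm, and of miR-148a, with 2.92 (SE 0.32, adjusted p = 1.53e-15). Toward the 5p arm they were those of miR-345, with -3.48 (SE 0.65, adjusted p = 1.80e-06), and of miR-455, with -2.83 (SE 0.42, adjusted p = 2.66e-09). miR-345 had only 26 EV counts of its 3p arm and 20 of its 5p arm, and 45 Intracellular counts of its 5p arm.

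An exchange of the major arm was seen in few precursors. In 39 of the 73 the 5p arm exceeded the 3p arm in all 3 Intracellular libraries, and in 3 of these, 7.69%, the 3p arm exceeded the 5p arm in all 3 EV libraries. These were miR-140, miR-148a and miR-193a, of which miR-193a was chosen for mention after its values were seen. miR-148a, a miRNA known to repress DNA methyltransferase genes, had 63.7% of its pooled EV counts and 17.3% of its pooled Intracellular counts in the 3p arm. The change of miR-193a (1.76, SE 0.84) was not called (edgeR adjusted p = 0.111) and rests on 25 EV counts of both arms. The opposite exchange, from 3p to 5p in all 3 EV libraries, occurred in 0 of the 26 precursors whose 3p arm was the major one in all 3 Intracellular libraries. This 0 depends on asking for all 3 EV libraries. miR-136, added after its values were seen, had log2 ratios of 1.17, 0.69 and 0.75 in Intracellular replicates 1, 2 and 3. In EV replicates 1, 2 and 3 they were -1.25, -1.38 and 0.16, a called change of -1.76 (SE 0.35, edgeR adjusted p = 4.78e-06).

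The 3 precursors nearest to miR-140 in mean log2 ratio over the 6 libraries were not called. Against its mean of 0.51 these were miR-667 at 0.56, miR-132 at 0.59 and miR-322 at 0.42. Their log2 changes in EV were 0.89 (SE 1.12), 0.84 (SE 0.54) and 0.18 (SE 0.43), with edgeR adjusted p of 0.579, 0.253 and 0.756. miR-667 rests on 19 EV counts of both arms, and these values do not show that the ratios stayed the same. miR-140 went from a mean log2 ratio of -0.70 ± 0.10 in Intracellular libraries to 1.71 ± 0.89 in EV (SD, n = 3 each).

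**Figure D4:**
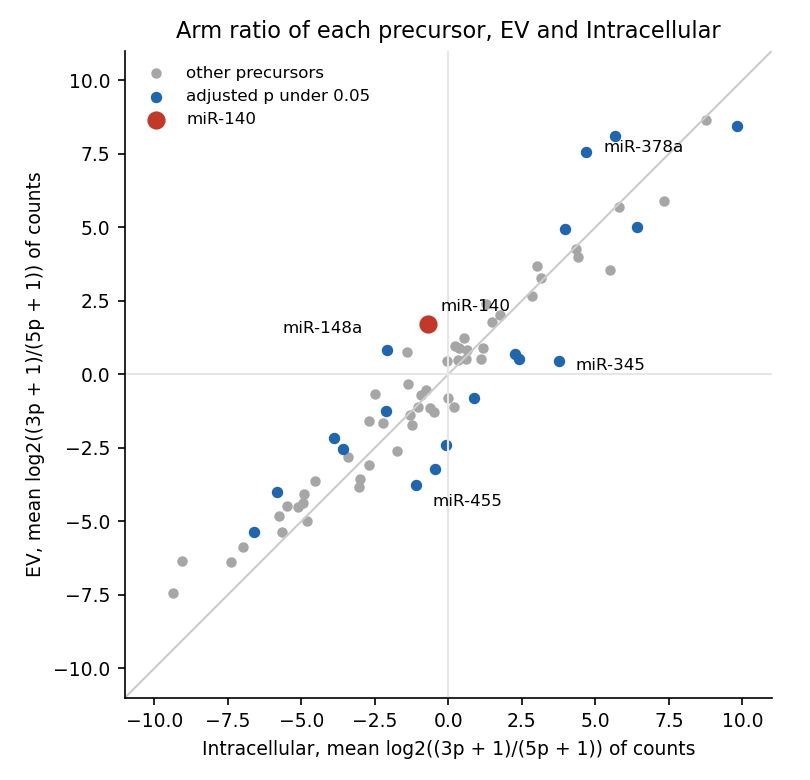
Mean log2 ratio of 3p to 5p counts (1 added to each) in EV against that in Intracellular libraries, 1 dot for each of 73 precursors, with those at an adjusted p under 0.05 in blue, miR-140 in red and the line of equal ratios. miR-140 lies in the upper left part, at -0.70 inside the cells and 1.71 in EV, where the major arm differs between the groups.

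The arms also differ in base composition, with 57.1% G and C in the 3p arm and 45.5% in the 5p arm. The median was 45.8% over the 290 known miRNAs tested and 53.3% over those called higher in EV. Over the 73 precursors, which share the same 6 libraries, the difference in G and C content between the arms had a Spearman's rho of 0.02 and a Pearson's r of 0.01 with the change of arm ratio. The difference for miR-140 was 11.7 percentage points, and 9 precursors had a larger one in that direction. The part of base composition in the result for miR-140 was not tested.

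The profile of miR-140-3p across libraries was nearest to that of miR-455-5p. Likeness was measured as the root mean square difference of log2(CPM + 1), centred on its mean over the 6 libraries, from each of 160 other known miRNAs with a mean of at least 100 CPM. miR-455-5p differed by 0.26, followed by miR-152-3p (0.34), miR-503-5p (0.38) and miR-182 (0.39). miR-455-5p stood at 1478, 2131 and 1061 CPM in EV replicates 1, 2 and 3, and at 121, 282 and 271 CPM in Intracellular replicates 1, 2 and 3. As for miR-140-3p, EV replicate 2 was the highest library and Intracellular replicate 1 the lowest. The same order was seen in miR-152-3p, miR-503-5p and miR-182, and all of these were chosen for their nearness to this profile. miR-182 was flatter within EV, at 283, 294 and 217 CPM. The other arm of the same precursor, miR-140-5p, came only at position 111 in this order, with a difference of 1.33.

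The profile of miR-140-5p was nearest to those of miR-374-5p (0.11), miR-27b-3p (0.12), miR-26a-5p (0.13) and miR-103-3p (0.14). In CPM each had its lowest value in Intracellular replicate 1. miR-374-5p, for example, stood at 406, 369 and 455 CPM in EV and 284, 400.2 and 390 CPM in Intracellular replicates 1, 2 and 3. Its log2 difference of -0.45 was not called (edgeR adjusted p = 0.115). The remaining 3 were called lower in EV with TMM scaling: miR-27b-3p by -0.68 (edgeR adjusted p = 0.0333), miR-26a-5p by -0.75 (adjusted p = 0.0213) and miR-103-3p by -0.67 (adjusted p = 0.00876). With total counts 0 of these 3 were called (edgeR adjusted p of 0.896, 0.677 and 0.909). Without EV replicate 1 all 3 calls were lost (edgeR adjusted p of 0.133, 0.112 and 0.0670). The calls of miR-27b-3p and miR-26a-5p were also lost without EV replicate 2 (edgeR adjusted p of 0.143 and 0.104), while that of miR-103-3p held (adjusted p = 0.0392). In the order for the 5p arm, miR-140-3p came at position 152 of 160.

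**Figure D5:**
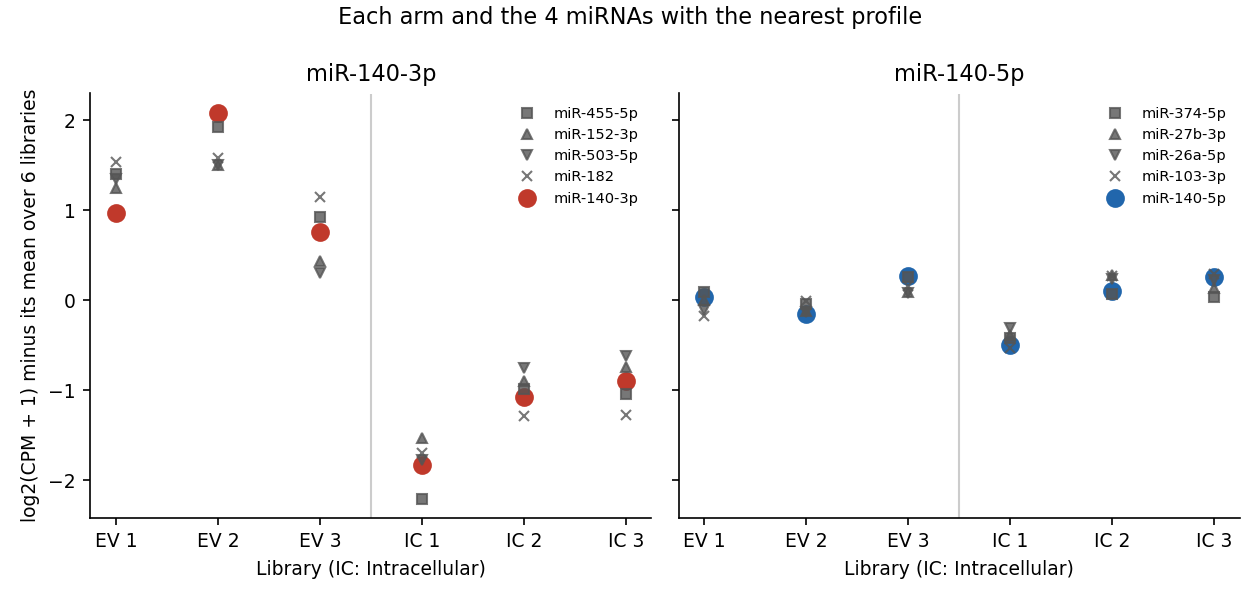
log2(CPM + 1) minus its mean over the 6 libraries for miR-140-3p (left) and miR-140-5p (right) as coloured circles, with the 4 known miRNAs of nearest profile in grey, by library (IC stands for Intracellular). On the left all EV points lie above 0 and all Intracellular points below 0, while on the right the groups overlap.

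miR-455 was, like miR-140, called in one arm and not in the other. It lies within Col27a1, a collagen gene, in the RefSeq gene table, and like miR-140 it is known as a Sox9-driven miRNA of chondrocytes. Its 5p arm rose from 225 ± 90.1 CPM in Intracellular libraries to 1557 ± 539 CPM in the vesicles (SD, n = 3 each), by 2.21 on the log2 scale (SE 0.24, edgeR adjusted p = 3.88e-07). Its 3p arm stood at 102 ± 34.2 CPM in Intracellular libraries and 100.5 ± 7.01 CPM in EV, a log2 difference of -0.63 (SE 0.29) that was not called (adjusted p = 0.0936). Here the arm that rose was already the major one inside the cells. The levels of its 3p arm in EV rest on 28 counts in all, against 443 of the 5p arm.

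Other miRNAs described in cartilage, bone or connective tissue cells went in both directions. Of 24 listed, 23 had a row, 19 passed the filter on low counts, and 5 were called higher in EV and 6 lower with TMM scaling, or 7 and 0 with total counts. These are 26.3% and 31.6% of the tested members, against 25.6% and 17.1% of all tested miRNAs. The median log2 difference of the tested members was -0.33, against -0.06 for all tested miRNAs.

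The members called higher were miR-455-5p, miR-214-3p (1.53), miR-22-5p (0.70), miR-34a-5p (0.75), a target of p53, and miR-29b-3p (1.02), which represses collagen genes. miR-34a-5p and miR-29b-3p fall outside the rule for named miRNAs and were added after their values were seen. miR-29b-3p rests on 33 EV counts, and its call was lost without any 1 of EV replicates 1, 2 and 3 and Intracellular replicates 1 and 2 (edgeR adjusted p of 0.0515, 0.343, 0.0958, 0.0579 and 0.0724). The call of miR-34a-5p was lost without EV replicate 1 (adjusted p = 0.0670). With upper quartile scaling the calls of miR-22-5p, miR-34a-5p and miR-29b-3p were lost (edgeR adjusted p of 0.0924, 0.0776 and 0.0947). They were also lost with no filter (edgeR adjusted p of 0.0560, 0.0521 and 0.0703). miR-214-3p, made from the Dnm3os transcript of mesenchymal cells, was at 1098 ± 279 CPM for EV against 249 ± 90.6 CPM for Intracellular libraries (SD, n = 3 each).

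Called lower with TMM scaling were miR-199a-5p (-1.04), miR-199a-3p (-0.78), miR-26a-5p (-0.75), miR-27b-3p (-0.68), miR-145-5p (-0.53), which is known to repress Sox9, and miR-365-3p (-0.80). None of these 6 was called with total counts, where miR-145-5p was at 0.08. Of the 6 only miR-199a-5p was called without EV replicate 1, without EV replicate 2 or without Intracellular replicate 3. The number called was 3 without Intracellular replicate 2, and 2 (miR-199a-5p and miR-145-5p) with the replicate number as a block. The CPM of miR-145-5p was 3024 ± 70.5 for EV against 2863 ± 908 for Intracellular libraries (SD, n = 3 each), a difference within that spread. miR-365-3p (edgeR adjusted p = 0.0481) rests on 25 EV counts. It falls outside the rule for named miRNAs and was added after its values were seen. The remaining 8 tested members, among them miR-22-3p, miR-146a-5p and miR-218a-5p, were not called. A further 4 rows of the list did not pass the filter.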

How the data were processed

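Small RNA was sequenced from 3 EV and 3 Intracellular samples. Libraries were built by adapter ligation, reverse transcription and PCR, per the labels' protocols, and these steps favour some sequences. Per the submitters' processing notes, cutadapt and the build Rnor_6.0 were used. Which aligner, miRNA database and counter were used is not given in the sources used here. The authors deposited whole-number counts with rows for known and predicted miRNAs, some of which join several names. Each arm of miR-140 has a row of its own. Their deposited TPM values are the same counts per 1000000 counts of the library, without a length term (largest difference 4.78e-05), so it is called CPM here.

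The main test was edgeR's quasi-likelihood test (edgeR 4.0.16 under R 4.3.3), run 2-sided with robust dispersions on TMM-scaled counts after filterByExpr with a minimum count of 10 and a minimum total of 15, at a Benjamini-Hochberg adjusted p under 0.05, called higher or lower. Standard errors come from the F statistic. Arm ratios were tested in the same way on the counts of both arms of 73 precursors, with terms for library, arm and arm by group, and p adjusted over these. Log2 ratios per library used a prior count of 1. Both procedures were tested on simulated data. The miRNA test called 52.2% of 2-fold changes, 89.4% of 4-fold changes and 1.56% of unchanged miRNAs. The arm ratio test called 77.8% of 2.8-fold changes, 72.2% of 8-fold changes and 5.41% of unchanged precursors. DESeq2 1.42.0 and limma 3.58.1 were alternatives, beside other scalings, filters, pseudocounts, a replicate block and each library left out with the tested rows kept. Hairpins were folded with RNAfold 2.7.2.

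Named miRNAs were, by rule, both arms, the 4 of nearest profile to each, their neighbours in mean CPM, the called members of the cartilage and connective tissue list (up to 8 by mean CPM), the arms of miR-455, the 2 largest called changes of arm ratio in each direction and the 3 precursors of nearest mean ratio. The members and lists were chosen with earlier results of these data known.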

Additional observations from a re-analysis of the deposited data

How the results depend on the processing

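miR-140-3p stayed called higher in all 18 alternatives, with log2 fold changes of 1.48 (without EV replicate 2) to 2.63 (total counts) and edgeR, DESeq2 or limma adjusted p of 9.42e-15 to 0.0131. The arm ratio of miR-140 stayed called in the 10 alternatives fitted across precursors, at 1.93 to 2.89 (edgeR or limma adjusted p of 4.04e-12 to 0.0231). By the exact permutation test it was 2.41 with p = 0.1, the smallest that design allows. The share of both arms kept its direction in 8 of 8 alternatives. miR-140-5p had no stable call or sign. It was 0.0724 with total counts and 0.10 with limma on log2(TPM + 1) and on log2(TPM + 0.1), and it passed the threshold at -0.80 with upper quartile scaling and -0.69 with no filter; leaving out 1 library gave -0.72 to -0.45.

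miRNAs called higher numbered 197 with no filter. Those called lower numbered 3 with total counts, 92 with upper quartile scaling, 37 among known miRNAs alone, 4 and 2 with limma on log2(TPM + 1) and log2(TPM + 0.1), and 18 to 58 with 1 library left out. Of the cartilage and connective tissue list, 2 were higher with upper quartile scaling, 3 with no filter and 3 to 5 with 1 library left out. Lower were 0 with total counts and with both limma fits on TPM, 2 with at least 10 counts in each library of a group, 2 among known miRNAs alone, and 1 to 6 with 1 library left out. Called precursors numbered 9 with limma and a prior count of 0.25. With total counts and limma on log2(TPM + 1) and log2(TPM + 0.1), miR-145-5p was 0.0818, 0.13 and 0.13 and miR-374-5p 0.20, 0.21 and 0.21. With the limma fits miR-455-3p was 0.0316 and 0.0325. The arm ratio of miR-667 was -0.10 and -0.58 with limma and prior counts of 1 and 0.25.

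Between same-numbered libraries the correlations of the deviations from the group means were 0.02, 0.02 and 0.02, and no library correlated best with its own number. The low depth of the EV libraries adds counting error to these deviations, so the values cannot decide whether the libraries were paired. With the replicate block 87 miRNAs were higher, 2 listed members were lower, miR-140-3p was 1.93, miR-140-5p -0.55 and the arm ratio of miR-140 2.48 (edgeR adjusted p = 0.00479). Depth limits the 5p arm most, with 21 to 28 counts in each EV library.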
